A study of Mus musculus with 4 samples.

Results

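The genes described here encode the nuclear subunits of the mitochondrial respiratory chain and of the ATP synthase, measured by RNA sequencing in mouse bone marrow-derived macrophages. Members were all symbols in the deposited files that begin with Nduf followed by a, b, c, s or v and a digit, the symbols Sdha to Sdhd, and those that begin with Uqcr, with Cox4 to Cox8 or with Atp5. This gave 85 of 23284 symbols: 37 for complex I, 4 for complex II, 8 for complex III, 19 for complex IV and 17 for complex V. The rule uses names alone. It also takes in Cox4nb, whose RefSeq symbol is Emc8 and which belongs to a membrane protein insertion complex, and Atp5s and Atp5sl, which are no ATP synthase subunits under their later names. It leaves out the 13 subunits encoded by mitochondrial DNA, none of which was found under the symbols used.

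Macrophages of wild-type mice were all given lipopolysaccharide (LPS), a bacterial cell wall component, at 1 µg/ml for 1 h. Then 24 h followed in which 1 group had recombinant mouse galectin-1, a lectin that binds galactose-containing glycans, and the vehicle group had phosphate-buffered saline (PBS). Both groups, of 2 libraries each, thus carry the LPS treatment, and cells without it are not analysed here. The labels do not tell whether replicates are separate cultures or animals. The p-values therefore cover the spread of these samples alone, and that spread may be technical. Values are FPKM, a measure per transcript length and per mapped fragments.

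Complex I oxidizes NADH, complex II oxidizes succinate, and both pass electrons to coenzyme Q. Complex III moves them on to cytochrome c and complex IV to oxygen. Complexes I, III and IV pump protons across the inner membrane, and complex V, the ATP synthase, uses the proton gradient to make ATP. Macrophages activated by LPS are known to rely more on glycolysis and to use the respiratory chain less for ATP, and complexes I and II are known sources of reactive oxygen species in them.

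The groups were compared with limma on log2(FPKM + 1) over the 9380 genes whose mean was 1 FPKM or more, and a gene was called at a Benjamini-Hochberg adjusted p under 0.05. With galectin-1, 1 of 78 tested members was called higher and 0 lower. Over all tested genes 1.19% were called, 0.608% higher and 0.586% lower, so the count for the members gives no result about them. These were 57 genes higher and 55 lower, and 24 and 47 after quantile normalization. The called member was Ndufs5 of complex I, listed near 0 in both vehicle libraries, and its values are given below with their limits. The other 77 had differences from -0.21 to 0.24 on the log2 scale, with a lowest limma adjusted p of 0.0986. Unadjusted p under 0.05 in limma was reached by 7 members in the higher and 5 in the lower direction, 15.4% of the members against 23.2% of all tested genes.

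The median difference of the members was 0.03, also without Ndufs5, and that of all tested genes was 0.00. Differences were positive for 64.1% of members and for 50.7% of all tested genes. Over all tested genes both values differed by expression level. Among the 50 members with a mean of 50 to 400 FPKM the median was 0.04 and 70.0% were positive. Among all 1296 tested genes of that range the median was also 0.04 and 66.1% were positive. Among the 22 members of 10 to 50 FPKM the median was 0.00 and 11 were positive, against a median of 0.02 and 56.9% positive for all 2991 tested genes of that range. The groups did not overlap for 26 members in the higher and 11 in the lower direction, 47.4% of the members, where 55.4% of all tested genes showed no overlap. Members made up 1.28% and 1.27% of the summed FPKM of the vehicle libraries and 1.26% and 1.27% of the galectin-1 libraries.

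**Figure D1:**
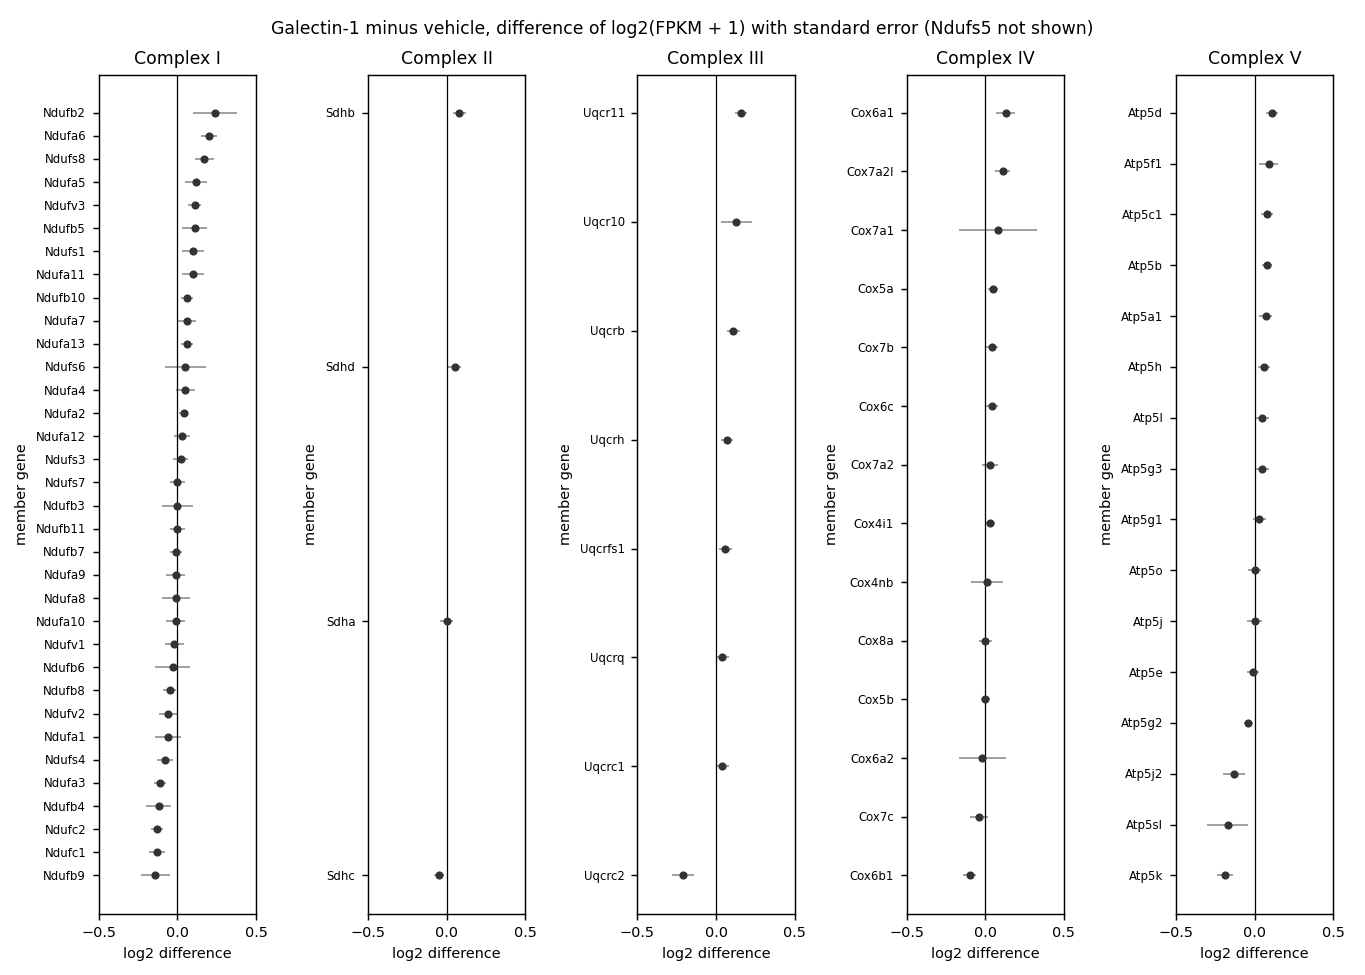
Difference of log2(FPKM + 1), galectin-1 minus vehicle, for the tested members drawn (points, with limma standard errors as bars), sorted within each complex. Ndufs5, at 3.82, is not drawn, and the points lie between -0.21 and 0.24.

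Of the 85 members, 78 reached the expression minimum. The 7 others were Ndufa4l2, Cox4i2, Cox6b2, Cox7b2, Cox8b, Cox8c and Atp5s. Ndufs5 reached it only through the galectin-1 libraries, so a difference was built into its being tested, and it is left out of the ranges below. Of the tested members, 72 had more than 10 FPKM in every library.

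Ndufs5, on chr4:123712710-123718186 of GRCm38.p6, encodes a small accessory subunit of complex I in the intermembrane space. It was listed at 0.0208 and 0.0103 FPKM in the vehicle libraries and at 9.31 and 18.9 FPKM in the galectin-1 libraries. The groups lay far apart and the galectin-1 libraries themselves differed by about as much as their lower value. The fitted log2 difference was 3.82 (standard error 0.29, limma adjusted p = 0.0154). The value depends on the pseudocount, being 6.86 with 0.1 in place of 1, and no fold is given against values this near to 0. Without vehicle replicate 1 or without vehicle replicate 2 the adjusted p was 0.101 and 0.104 (limma).

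The gene has a near-identical copy, BC002163, a processed pseudogene on chr16:42955631-42955949. The copy and the Ndufs5 transcript shared 99.4% of 319 bases, which span the whole coding region of 318 bases. The opening 120 bases of both are shown because both loci read alike there except at the marked bases. The capitals mark the 2 bases that differ over the 319, T81C and A105G, with the Ndufs5 base first and positions counted from the start codon. The Ndufs5 stretch is at chr4:123715960-123716079 on the minus strand and that of BC002163 at chr16:42955631-42955750 on the plus strand, both in GENCODE annotation of GRCm38.
Ndufs5: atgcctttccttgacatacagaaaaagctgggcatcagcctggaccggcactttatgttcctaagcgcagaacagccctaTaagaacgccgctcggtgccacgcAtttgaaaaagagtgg
BC002163: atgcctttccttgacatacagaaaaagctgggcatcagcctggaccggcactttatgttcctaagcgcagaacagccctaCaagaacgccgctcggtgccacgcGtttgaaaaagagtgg
BC002163 itself was listed at 0.246 and 0.254 FPKM with vehicle and at 0.478 and 0 FPKM with galectin-1, so the sum of both entries was also low in the vehicle libraries. The sources used here do not say how reads that fit both places were counted, and the part of the copy in the Ndufs5 values was not tested. Near-identical copies, at least 95% identical over at least 200 bases, were found in GENCODE for 21 members, all of them tested, and the files list a copy for 2 of these, Ndufs5 and Cox7c. The 57 tested members without a copy had a median difference of 0.04 and 0 calls.

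**Figure D2:**
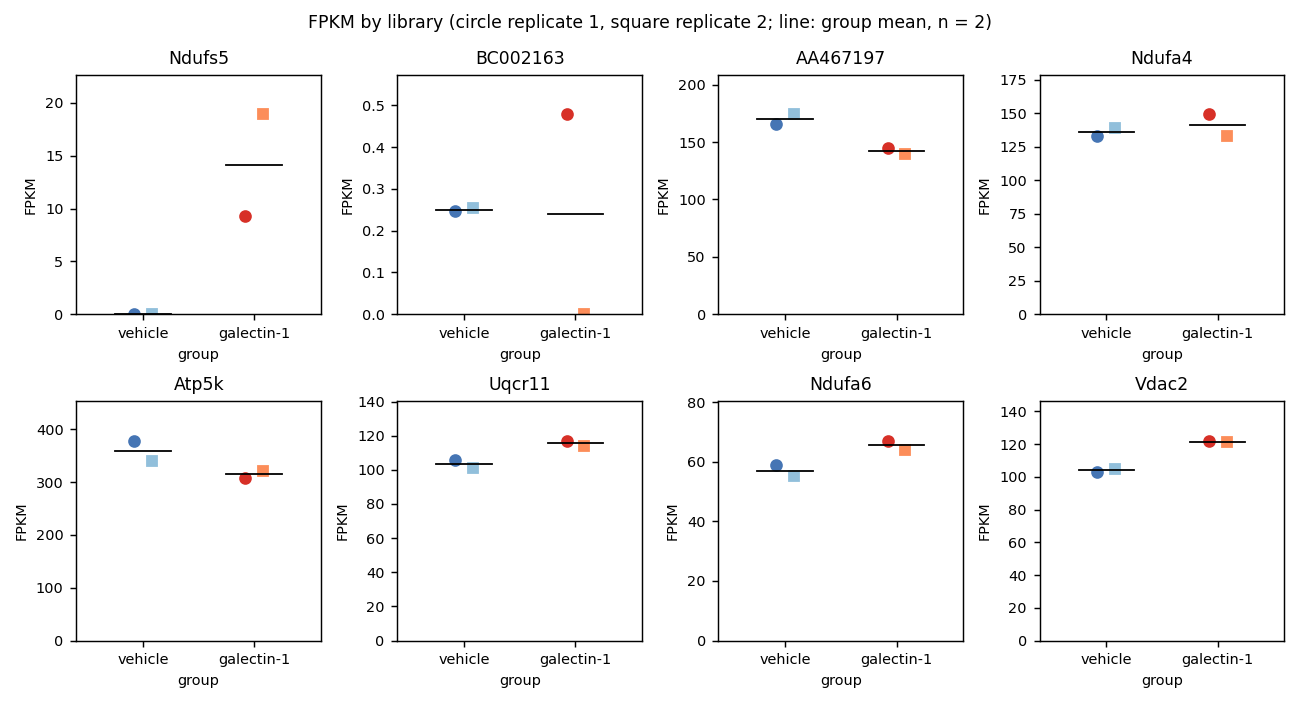
FPKM of single genes in the 2 vehicle and 2 galectin-1 libraries (circle replicate 1, square replicate 2, line the group mean; each vertical axis starts at 0). Ndufs5 is near 0 with vehicle, AA467197 and Atp5k are lower and Uqcr11, Ndufa6 and Vdac2 higher in both galectin-1 libraries, and Ndufa4 overlaps.

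Complex I, the largest complex, joins a peripheral arm that holds the redox centres to a membrane arm that pumps protons. Without Ndufs5 its 35 tested members had a median difference of 0.00, with 18 positive and 17 negative and a range from -0.14 to 0.24. The 29 tested supernumerary subunits, which surround the catalytic core and here include Ndufs5, had a median level of 49.6 FPKM. FPKM is per length, but levels set side by side between genes also depend on how reads were assigned to genes with copies, which is not known here.

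Ndufa6, a supernumerary subunit, had 58.8 and 55.2 FPKM with vehicle and 67.1 and 64.0 FPKM with galectin-1. Both galectin-1 libraries were higher, with a log2 difference of 0.20, a standard error of 0.05 and a limma adjusted p of 0.0986. Ndufs8, which carries a pair of iron-sulfur clusters next to the coenzyme Q site, had 18.2 and 16.8 FPKM with vehicle and 19.5 and 20.1 with galectin-1. Its groups did not overlap either, and its log2 difference of 0.17 (standard error 0.06) had a limma adjusted p of 0.157. Ndufc2, a membrane arm subunit, was lower in both galectin-1 libraries, at 46.6 and 48.1 FPKM against 52.0 and 51.8 with vehicle. Its log2 difference was -0.13 (standard error 0.04, limma adjusted p = 0.132). None of these 3 differences passed the threshold. The ends of the range belong to Ndufb2 and Ndufb9, membrane arm subunits named here after their values were seen. Ndufb2 had 29.7 and 21.6 FPKM with vehicle and 32.0 and 28.4 with galectin-1, and Ndufb9 had 58.9 and 49.6 with vehicle and 50.9 and 46.9 with galectin-1. Both overlapped between the groups, and their vehicle libraries lay further apart than the group means.

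The highest complex I levels were those of Ndufa3, at 159 and 163 FPKM with vehicle and 155 and 144 with galectin-1, and of Ndufa4, at 133 and 139 with vehicle and 149 and 133 with galectin-1. The lowest was that of Ndufa4l2, a paralog of Ndufa4 induced by hypoxia in other cells. It was listed between 0 and 0.462 FPKM over the 4 libraries. The next lowest was Ndufa11, a membrane arm subunit, at 5.83 and 6.17 FPKM with vehicle and 6.40 and 6.55 with galectin-1. Ndufa4 is named for complex I but its protein is now assigned to complex IV.

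AA467197, on chr2:122637887-122641076, also known as Nmes1, encodes a second paralog of Ndufa4. It is induced by LPS in macrophages, its protein can take the place of Ndufa4 in complex IV, and its transcript carries the microRNA miR-147. It is not a member by the rule and was taken from a list of related genes. It had 166 and 174 FPKM with vehicle and 145 and 139.9 FPKM with galectin-1, so both galectin-1 libraries were lower. The log2 difference was -0.25 (standard error 0.04, limma adjusted p = 0.0490). Ndufa4 had a log2 difference of 0.05 (standard error 0.06, limma adjusted p = 0.656) and its groups overlapped. Whether the 2 paralogs differ in their response was not tested. The AA467197 call was lost without any 1 of the 4 libraries, with limma adjusted p from 0.172 to 0.228 and differences from -0.285 to -0.220. It was also lost with no filter (limma adjusted p = 0.142) and without the variance trend (0.144).

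Complex II, succinate dehydrogenase, is shared with the citric acid cycle. Its 4 members had even levels, from 51.5 FPKM for Sdha to 70.1 FPKM for Sdhc as means over the libraries. Sdha, the flavoprotein that oxidizes succinate, had 52.1 and 51.0 FPKM with vehicle and 52.0 and 51.0 with galectin-1, a log2 difference of 0.00 with a standard error of 0.04. Sdhb, the iron-sulfur subunit, had 50.6 and 53.3 FPKM with vehicle and 54.3 and 56.0 with galectin-1 (log2 difference 0.08, standard error 0.04, limma adjusted p = 0.307). The groups did not overlap for 3 of the 4, Sdhb and both membrane anchors, with 2 higher and 1 lower. That is 75.0%, against 55.4% of all tested genes and 847 of the 1296 of 50 to 400 FPKM, and none was called. Sdhc had 71.4 and 71.6 FPKM with vehicle and 68.3 and 69.3 with galectin-1 (log2 difference -0.05, limma adjusted p = 0.386), and Sdhd had 55.1 and 53.0 with vehicle and 55.9 and 55.8 with galectin-1 (0.05, limma adjusted p = 0.498).

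Complex III had a median difference of 0.06, and 7 of its 8 members were positive. Uqcr11, a small subunit of the membrane part, was higher in both galectin-1 libraries, at 117 and 114 FPKM against 106 and 101 with vehicle. Its log2 difference of 0.16 (standard error 0.04) had a limma adjusted p of 0.0986. Uqcrb, a subunit near the coenzyme Q site, had 124 and 117 FPKM with vehicle and 129 and 131 with galectin-1 (0.11, standard error 0.04, limma adjusted p = 0.165). Uqcrc2, a core protein on the matrix side, was the negative member. It had 38.6 FPKM in both vehicle libraries and 35.9 and 31.0 FPKM in the galectin-1 libraries (-0.21, standard error 0.07, limma adjusted p = 0.166). The difference was -0.308 without galectin-1 replicate 1 and -0.103 without galectin-1 replicate 2. Uqcrc1, the partner of Uqcrc2, had 52.5 and 52.8 FPKM with vehicle and 53.3 and 55.3 with galectin-1, and is named here after its values were seen. Uqcrh, the hinge protein, had the highest level of the complex, at 192 and 178 FPKM with vehicle and 197 and 191 with galectin-1, and overlapped between the groups. Uqcrfs1, the Rieske iron-sulfur protein, stood next to Uqcrc2 at the low end, at 37.5 and 37.0 FPKM with vehicle and 39.6 and 38.0 with galectin-1.

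Complex IV, cytochrome c oxidase, had a median difference of 0.03 over 14 tested members, with a range from -0.10 to 0.13 and no call. Cox6b1, a subunit on the intermembrane space side, had 309.7 and 293 FPKM with vehicle and 273 and 289 with galectin-1. The groups did not overlap and the log2 difference was -0.10 (standard error 0.04, limma adjusted p = 0.227). Cox7a2l, which helps to join complexes III and IV into supercomplexes, had 126 and 117 FPKM with vehicle and 129 and 134 with galectin-1 (0.11, standard error 0.05, limma adjusted p = 0.221). Cox6a1 overlapped between the groups, with 193 and 179 FPKM with vehicle and 193 and 214 with galectin-1. Cox5a, a matrix-side subunit, had 132 and 129 FPKM with vehicle and 133 and 137 with galectin-1 (0.05, limma adjusted p = 0.449).

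Several subunits of complex IV have paralogs used in particular tissues, and the macrophages showed a plain choice between them in all 4 libraries. Cox4i1, the widely expressed isoform, had the highest level of complex IV, at 344 and 343 FPKM with vehicle and 350.2 and 349 with galectin-1. Its lung and hypoxia-linked paralog Cox4i2 was listed at 0 in 3 libraries and at 0.636 FPKM in galectin-1 replicate 2. Cox6a2, the heart and muscle isoform, had 2.23 and 3.29 FPKM with vehicle and 2.79 and 2.56 with galectin-1, against 179 to 214 FPKM for Cox6a1. Cox7a1, another muscle isoform, had 4.99 and 9.37 FPKM with vehicle and 7.94 and 6.77 with galectin-1, while Cox7a2 had 84.0 and 77.9 with vehicle and 83.6 and 81.9 with galectin-1. The groups overlapped for all of these except Cox4i1. The testis isoforms Cox6b2, Cox7b2 and Cox8c and the muscle isoform Cox8b were listed at 0 in all 4 libraries. Their widely expressed counterparts Cox7b and Cox8a had 51.7 to 55.6 FPKM and 188 to 198 FPKM. A list of 6 muscle markers summed to between 0.304 and 1.05 FPKM per library, with Myh1, Mb and Actc1 at 0 in all of them.

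**Figure D3:**
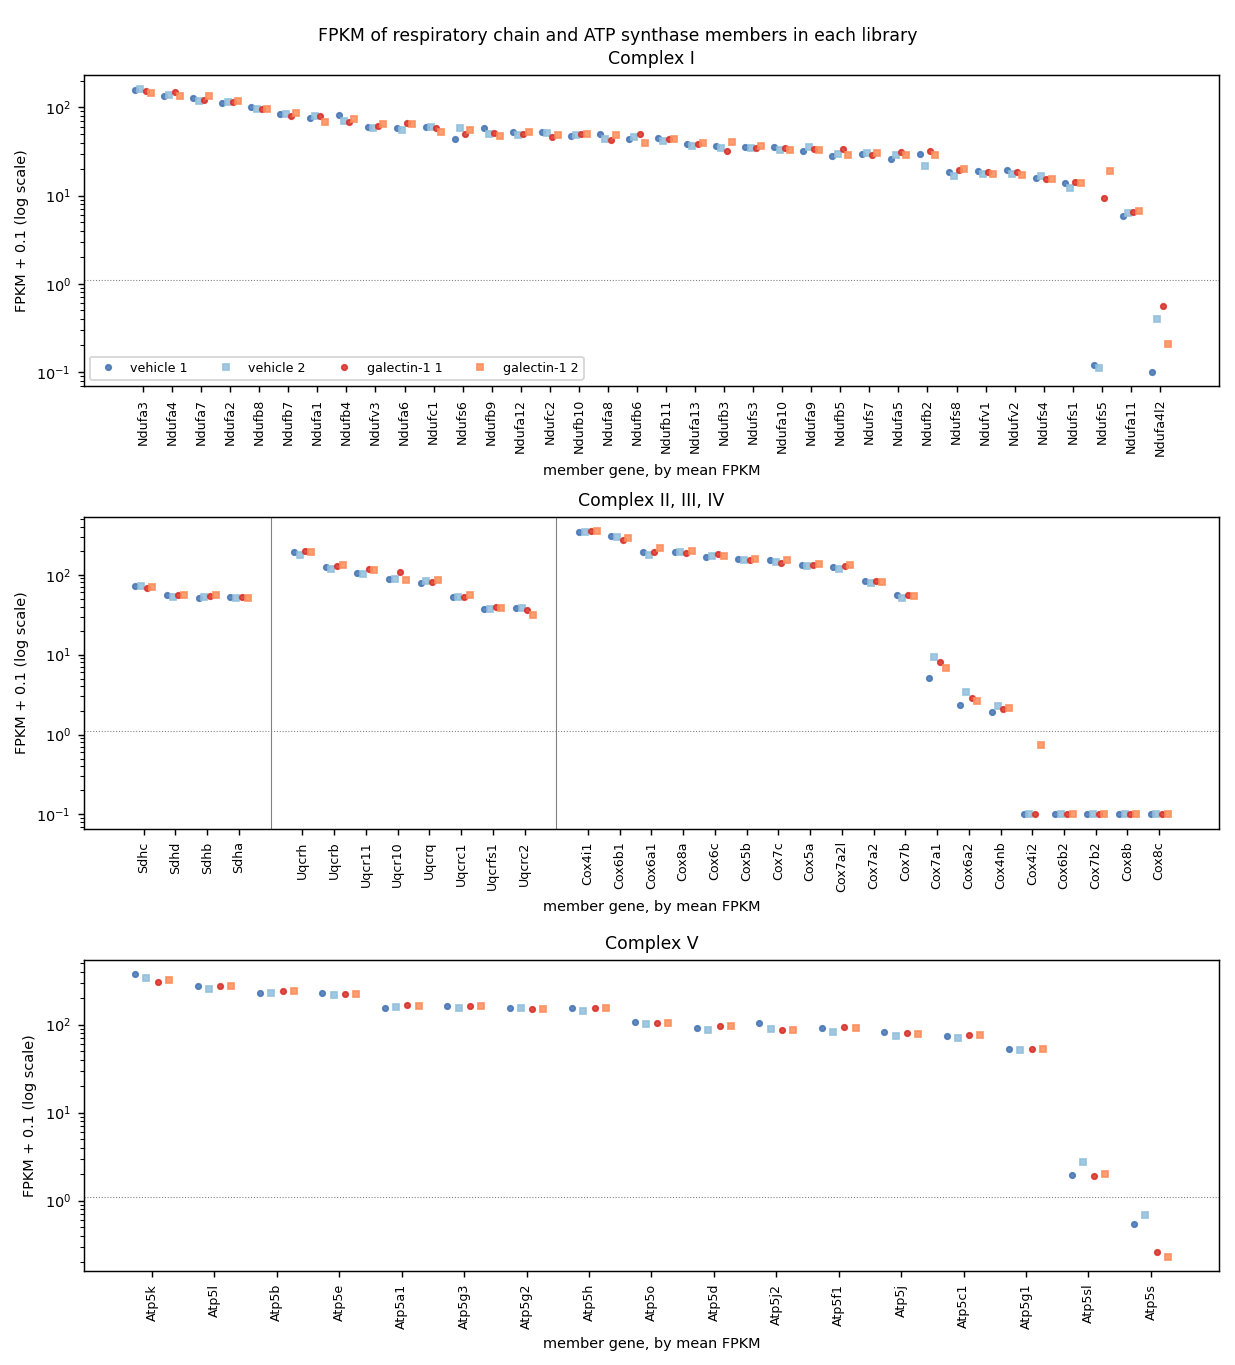
FPKM plus 0.1 on a log axis for the members drawn in each of the 4 libraries, ordered by mean FPKM within complexes; the dotted line marks the minimum of 1 FPKM for testing. Most members lie above 10 FPKM and agree closely between libraries, with Ndufs5 split by group and the tissue-specific paralogs at the bottom.

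Complex V consists of the F1 head, which makes ATP, a ring of c subunits that turns in the membrane, a peripheral stalk that holds the head, and further membrane subunits. Its 16 tested members had a median difference of 0.04, with a range from -0.19 to 0.11 and no call. Leaving out vehicle replicate 2 gave a median of 0.008, leaving out vehicle replicate 1 gave 0.067, and quantile normalization gave 0.013. Of the 5 F1 genes, Atp5a1, Atp5b, Atp5c1 and Atp5d were higher in both galectin-1 libraries and Atp5e overlapped. Of all tested genes, 29.1% were higher without overlap, and of the 1296 with a mean of 50 to 400 FPKM, 600 were. The 5 F1 genes lie in that range, and none of them was called. Atp5b, the catalytic beta subunit, had 227 and 229 FPKM with vehicle and 243 and 239.5 with galectin-1 (log2 difference 0.08, standard error 0.03, limma adjusted p = 0.170). Atp5d, the delta subunit of the central stalk, had 92.1 and 86.6 FPKM with vehicle and 96.3 and 96.4 with galectin-1 (0.11, standard error 0.04, limma adjusted p = 0.191). Atp5a1, the alpha subunit, had 156 and 157 FPKM with vehicle and 169 and 161 with galectin-1 (0.07, standard error 0.04, limma adjusted p = 0.276).

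Atp5k, which encodes the small membrane subunit e that takes part in joining ATP synthases into dimers, was not called either. It had 378 and 340.1 FPKM with vehicle and 308 and 320.4 FPKM with galectin-1, the highest mean level of complex V. Both galectin-1 libraries were lower, and the log2 difference was -0.19 (standard error 0.05, limma adjusted p = 0.125). Leaving out vehicle replicate 1 gave -0.114, and leaving out vehicle replicate 2 gave -0.266. Atp5l, encoding subunit g of the same membrane part, had 272 and 255 FPKM with vehicle and 275 and 272 with galectin-1, the next highest level. Atp5j2, encoding subunit f beside them, had 103 and 89.1 FPKM with vehicle and 87.8 and 87.7 with galectin-1, lower without overlap, and is named here after its values were seen. The 4 genes of the peripheral stalk, Atp5f1, Atp5h, Atp5j and Atp5o, had a median difference of 0.03. Of these, 2 were higher without overlap, against 29.1% of all tested genes. The 4 lie in the range of 50 to 400 FPKM, where 600 of 1296 tested genes were higher without overlap. A copy was found in GENCODE for Atp5k and 9 for Atp5l, so their values depend on how reads were assigned. The c subunit is encoded by 3 genes that give the same mature protein. Atp5g1 had 51.0 to 53.1 FPKM, Atp5g2 149 to 155 and Atp5g3 153 to 164 over the 4 libraries, so Atp5g1 was the lowest of the 3 in each of them. GENCODE holds 1 copy for Atp5g1, 2 for Atp5g2 and 0 for Atp5g3. The longest coding transcript has 4715 bases for Atp5g1, 753 for Atp5g2 and 723 for Atp5g3. The part of copies and lengths in this order was not tested. At the bottom of the complex V symbols were Atp5sl, at 1.88 and 2.65 FPKM with vehicle and 1.82 and 1.93 with galectin-1, and Atp5s. Atp5s had 0.450 and 0.581 FPKM with vehicle and 0.164 and 0.129 with galectin-1 and was not tested.

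Across complexes, the median level of tested members was 45.5 FPKM for complex I with Ndufs5 included and 46.2 without it. The median was 54.3 for complex II, 87.6 for complex III, 140.2 for complex IV and 128 for complex V. Within each library the medians of complexes IV and V lay above that of complex III and those of complexes I and II below it. In galectin-1 replicate 1, for example, they were 45.0, 55.1, 95.2, 136 and 128 FPKM from complex I to V, with Ndufs5 included in complex I. Complex IV was above complex V in each library, by 136 against 128 FPKM in that one.

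Assembly of these complexes needs factors that are not part of the finished enzymes, and 5 lists of such factors were described in the same way. The complex V list also holds Atpif1, listed for inhibition and not for assembly, at means of 167 FPKM with vehicle and 164 with galectin-1. None of the 39 tested genes of the 5 lists was called. Of these, 12, or 30.8%, had an unadjusted p under 0.05 in limma, all lower with galectin-1, where 11.0% of all tested genes were lower at that p, and 30 of 39 differences were negative with a median of -0.13. The 11 tested complex I factors were all negative, with a median of -0.24 and a range from -0.45 to -0.07. Of these, 6, or 54.5%, were lower without overlap and 0 higher, where 26.2% of all tested genes were lower without overlap. Among the 4843 tested genes of 1 to 10 FPKM, 1480 were lower without overlap. Acad9, a factor of the membrane arm, had 3.24 and 3.74 FPKM with vehicle and 2.26 and 2.31 with galectin-1 (log2 difference -0.45, standard error 0.09, limma adjusted p = 0.0820). Foxred1, an oxidoreductase needed for complex I, had 9.22 and 9.94 FPKM with vehicle and 7.17 and 7.71 with galectin-1 (-0.33, standard error 0.07, limma adjusted p = 0.0848).

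The median level was 5.78 FPKM over the 5 lists and 3.14 FPKM for the complex I list. That of the tested members was 61.4 FPKM, and Cox17 and Atpif1 lay above it in each library. Cox17, named here after its values were seen, had 161 and 139 FPKM with vehicle and 126 and 123 with galectin-1. It was lower without overlap (log2 difference -0.27, limma adjusted p = 0.106), while Atpif1 overlapped. The 4843 tested genes of 1 to 10 FPKM had a median difference of -0.03, and 41.4% of them were positive. No test was made of the difference between factors and subunits. Of 17 tested complex IV factors, 5 were positive, with a median of -0.04. Taco1, which activates translation of the mitochondrial Cox1 message, had 3.25 and 2.96 FPKM with vehicle and 1.30 and 1.90 with galectin-1 (-0.67, standard error 0.13, limma adjusted p = 0.0745). Ccdc56, also named Coa3, had 28.2 and 25.8 FPKM with vehicle and 22.5 and 20.4 with galectin-1 (-0.32, standard error 0.07, limma adjusted p = 0.0833). With the replicate number as a block its limma adjusted p was 0.0348, but that setting called 123 genes higher and 117 lower in place of 57 and 55. Under the other settings with all 4 libraries it was 0.0658 to 0.187 (limma). For complexes II and III, 3 factors each were tested. Acn9, also named Sdhaf3, had 1.89 and 3.47 FPKM with vehicle and 1.43 and 1.45 with galectin-1. Bcs1l, which inserts the Rieske protein into complex III, had 1.51 and 1.10 FPKM with vehicle and 0.861 and 0.763 with galectin-1. Atpaf1, a chaperone of the F1 head, had 2.07 and 1.92 FPKM with vehicle and 1.45 and 1.09 with galectin-1 (-0.41, limma adjusted p = 0.127). In the same list Tmem70, which helps to form the c ring, had a vehicle mean of 17.6 ± 0.356 FPKM and a galectin-1 mean of 19.1 ± 0.0457 FPKM (SD, n = 2 libraries; log2 difference 0.11, limma adjusted p = 0.242).

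**Figure D4:**
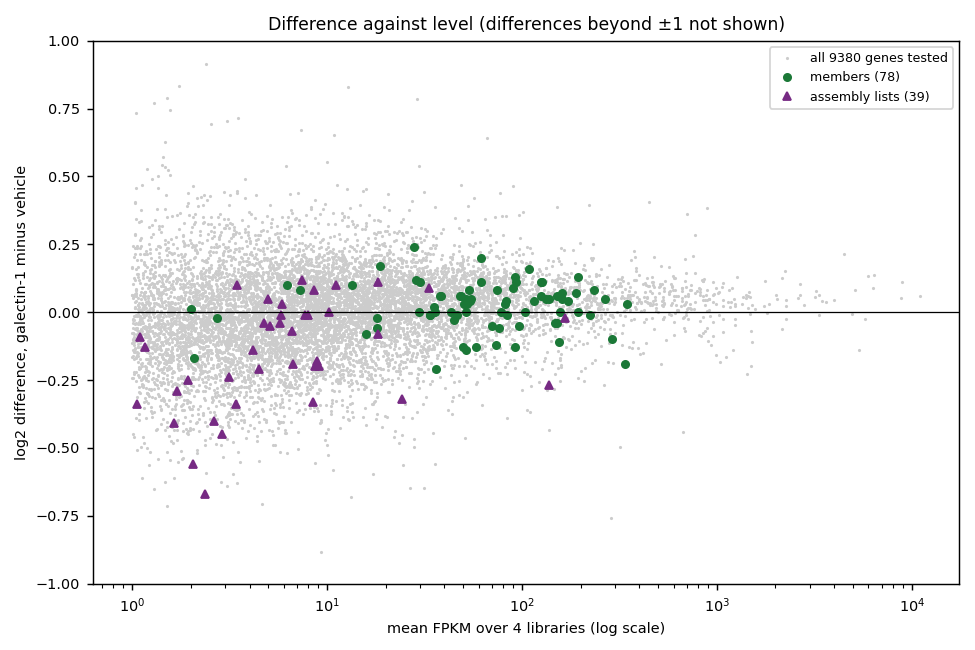
Difference of log2(FPKM + 1), galectin-1 minus vehicle, against mean FPKM on a log axis for all 9380 tested genes (grey), the 78 tested members (green circles) and the 39 tested genes of the assembly lists, which include the inhibitor Atpif1 (purple triangles). Members lie close to 0 at high levels, and most genes of the assembly lists lie below 0 at lower levels.

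Subunits and electron carriers outside the rule showed no call among 5 tested genes. Their median difference was -0.07, and the groups overlapped for all 5, cytochrome c (Cycs), Cyc1 of complex III and Ndufab1 among them. The list of carriers and channels for ADP, ATP and phosphate also held uncoupling proteins and creatine kinases, and 7 of its 12 genes were tested. Of these, 6 differences were positive and 1 gene was called higher, against 0.608% of all tested genes. An unadjusted p under 0.05 in limma was reached by 4, or 57.1%, all higher, where 12.2% of all tested genes were higher at that p. Among the 1296 tested genes of 50 to 400 FPKM, where the 7 lie, 323 were higher at that p. Vdac2, a channel of the outer membrane, had 103 and 105 FPKM with vehicle and 122 and 121 FPKM with galectin-1. Its log2 difference was 0.22 (standard error 0.03, limma adjusted p = 0.0485). The call was lost without any 1 library, with limma adjusted p from 0.180 to 0.227, after quantile normalization (0.0669), with median ratio scaling (0.0518), with no filter (0.135) and without the variance trend (0.147). Slc25a5, the main ADP/ATP carrier here, had 141 FPKM in both vehicle libraries and 156 and 150.1 with galectin-1 (0.12, limma adjusted p = 0.127). Ucp2, an uncoupling protein homolog of macrophages, overlapped, at 105 and 106 FPKM with vehicle and 104 and 108 with galectin-1, and is named here after its values were seen.

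Of 14 listed nuclear regulators of respiratory genes, 13 were tested and none was called, with 3 higher and 3 lower at an unadjusted p under 0.05 in limma. That is 46.2% of the list, against 23.2% of all tested genes. Tfam, which packages and transcribes mitochondrial DNA, had 5.56 and 5.42 FPKM with vehicle and 3.91 and 3.98 with galectin-1. Its log2 difference was -0.39 (standard error 0.07, limma adjusted p = 0.0640). Yy1, a zinc finger factor, had 16.7 and 17.1 FPKM with vehicle and 20.2 and 19.9 with galectin-1 (0.23, standard error 0.05, limma adjusted p = 0.0767). Nrf1 and Gabpa, named here after their values were seen, had 8.21 FPKM in both vehicle libraries against 7.71 and 7.98, and 10.5 and 10.9 FPKM against 12.1 and 11.2. Neither difference passed, with limma adjusted p of 0.605 and 0.350. Gabpb1 of the same list went the other way from Gabpa, at 18.6 and 16.1 FPKM with vehicle and 13.9 and 14.4 with galectin-1. Its log2 difference was -0.28 (limma adjusted p = 0.118).

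Nrf1 and the ETS factor Gabpa are textbook activators of respiratory genes, and their letters were searched in RefSeq promoter windows of GRCm38.p6, from 250 bases before to 50 after the start. Of the members, 69 had a window. The Nrf1 letters GCGCANGCG, on both strands, were present for 20 of them, 29.0%, against 7.03% of all 27025 genes with a window and 16.8% of the 7540 tested genes with one. The ETS letters CCGGAAG, on both strands, were present for 16, 23.2%, against 9.93% of all genes and 23.0% of tested genes. The share of the members thus stood above that of tested genes for Nrf1 and beside it for ETS, without a test. The Yy1 letters AAGATGGCG, on both strands, were found for 8 members, 11.6%, against 1.64% of all genes and 4.23% of tested genes. ETS and Yy1 letters can share their AAG, so a stretch can count for both. Among the members only Atp5j had both, with the ETS letters at -61 and the Yy1 letters at -88, so they did not overlap. Such overlaps over all genes were not counted. Windows of 3 members named above are printed, from 120 bases before the start to the base before it, with Nrf1 or ETS letters in capitals. They are Ndufs5 (chr4:123718187-123718306), Atp5k (chr5:108434400-108434519) and Uqcr11 (chr10:80406822-80406941), all on the minus strand.
Ndufs5: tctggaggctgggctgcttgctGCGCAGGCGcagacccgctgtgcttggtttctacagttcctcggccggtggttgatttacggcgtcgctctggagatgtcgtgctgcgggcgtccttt
Atp5k: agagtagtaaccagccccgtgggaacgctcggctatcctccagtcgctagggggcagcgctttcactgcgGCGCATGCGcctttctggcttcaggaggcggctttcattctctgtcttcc
Uqcr11: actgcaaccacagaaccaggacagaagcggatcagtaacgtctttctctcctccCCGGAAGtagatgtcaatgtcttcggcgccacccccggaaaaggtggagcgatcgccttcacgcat
The windows of Ndufs5 and Atp5k hold the Nrf1 letters and that of Uqcr11 the ETS letters. In the full windows, Uqcr11 also has Nrf1 letters across its start and Atp5k ETS letters after its start. Atp5k was lower and Uqcr11 higher in both galectin-1 libraries, neither past the threshold.

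The labelled cell type was checked against its markers. The 8 macrophage markers were all expressed and summed to 9346 and 9342 FPKM with vehicle and 10136 and 10120.3 FPKM with galectin-1. Most of that sum was Lyz2, at 5642 to 6269 FPKM. Of the 8, 7 were higher and 1 lower without overlap, where 55.4% of all tested genes showed no overlap, and 0 were called. The lower one was Mertk, at 19.8 and 18.3 FPKM with vehicle and 17.0 and 16.7 with galectin-1 (log2 difference -0.17). In sum, neutrophil markers had 1.34 to 2.92 FPKM, lymphoid markers at most 0.225 and erythroid markers at most 0.0955 FPKM in any library. Dendritic cell markers summed to 24.3 FPKM in both vehicle libraries and to 19.1 and 19.5 with galectin-1. Most of the fall lay in Fscn1, with means of 11.5 with vehicle and 8.01 with galectin-1, and Ccl22, with 9.04 and 7.34. Ccr7 had a lower mean too, and Flt3, Zbtb46, Xcr1, Clec9a and Itgax had higher means with galectin-1. Of these last, all but Itgax lay below 1 FPKM in each library. Fscn1 of that list fell (log2 difference -0.47, limma adjusted p = 0.0425; 0.172 to 0.221 without any 1 library, 0.130 with no filter and 0.138 without the variance trend). Fibroblast markers summed to 17.9 and 17.7 FPKM with vehicle and to 21.7 and 21.8 with galectin-1, with 0 called. The nuclear RNA Neat1 fell by 1.17 on the log2 scale (limma, adjusted p = 0.00174, and 0.0792 without the variance trend). In the same list Malat1 was at -0.39, Snhg12 at -0.37, Snhg1 at 0.18 and Gas5 at 0.04, none of them called. RNA quality was not tested. The part of any of these in the values above was not tested. In bulk samples fewer cells of a type and less RNA per cell cannot be told apart. Depth relative to vehicle replicate 1, from the steps of low values, was 0.968 for vehicle replicate 2, 1.02 for galectin-1 replicate 1 and 0.881 for galectin-1 replicate 2, and the absolute depth is unknown.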

How the data were processed

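The authors deposited FPKM for 23284 gene symbols in each of 4 libraries, 1 value per symbol. Per the labels' protocols, the library kit was a stranded one for mRNA. The submitters' processing notes list Cufflinks 2.2.1, TopHat2 2.0.13, Bowtie2 2.2.3 and SAMtools 0.1.19, with the build mm10. The role of each, the annotation, the handling of reads that fit several places and the dose of galectin-1 are not given in those sources. Many subunit messages are short and have pseudogenes, so their FPKM depend on those steps. Groups came from the sample titles. FPKM were used as deposited, as log2(FPKM + 1), for the 9380 genes whose mean was 1 FPKM or more. limma 3.58.1 in R 4.3.3 compared the groups, with a variance trend, and 2-sided p-values were Benjamini-Hochberg adjusted over all genes tested, with 0.05 as the threshold. Exact permutation was not used, as its smallest p here is 0.333. A fold on this scale understates the change of low genes. The fit was also run on simulated data. There the spreads were shuffled over genes, so the link of spread and level was lost, and no result here rests on it. All 85 members matched RefSeq and GENCODE genes by symbol or synonym. BLAST 2.17.0 searched GENCODE M21 transcripts for copies. Named genes were members called, in each complex the 4 members of smallest p and the 2 of highest and 2 of lowest level, isoform pairs, and called genes and up to 2 of smallest p from each other list. The members, lists and motifs were chosen with earlier results of these data known, and the motif letters after matches of longer forms had been seen. Alternatives covered the pseudocount, the filter, scaling, the variance trend, the replicate number as a block and each library left out. For 1 member, which enters the counts and medians, single values are not reported here.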

Additional observations from a re-analysis of the deposited data

How the results depend on the processing

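No member was called lower under any setting tried. Ndufs5 was the call in the higher direction, and the count of members called higher was 0 with no filter, in limma without the trend and among members without a near-identical copy (added after seeing the data), for complex I and for all members. It was 0 to 1 when each library was left out in turn. The lone library of a group is then assumed to vary like the other group. Quantile normalization moved the median log2 difference to 0.009 for all members, -0.012 for complex I and -0.007 for complex II. For complex I it was 0.018 with no filter, 0.003 with median ratio scaling, 0.000 without Ndufs5 and -0.002 without copies. With each library left out it ranged from 0.013 to 0.048 for all members, 0.006 to 0.042 for complex I, 0.003 to 0.031 for complex II and 0.008 to 0.067 for complex V. Quantile normalization left 23 members without overlap, 3 in complex III, 2 in complex IV and 6 in complex V. With a library left out these counts were 53 to 61 for all members, 24 to 26 for complex I and 6 to 11 for complex IV, since 3 libraries overlap less often by construction. Sdha, at 0.00, was at -0.030 after quantile normalization, -0.006 with median ratio scaling and between -0.015 and 0.015 with a library left out, and Ndufab1 ranged from -0.196 to 0.027. Among members not called, Cox6a1 ranged from 0.052 to 0.201 and Uqcrh from 0.017 to 0.126. The correlation of deviations of the libraries numbered 1 was 0.0114, so the replicate numbers were not taken as pairs. With the replicate block, 123 genes were called higher and 117 lower in place of 57 and 55. Over all genes the calls were 1 higher and 2 lower with no filter, 1 and 1 without the trend, 24 and 47 after quantile normalization, 127 and 99 with a minimum mean of 5 FPKM, and 4 to 9 higher and 3 to 12 lower with a library left out. With the block 1 member, Ndufs5, was called (log2 difference 3.82). No other cause of these shifts was tested. Absolute depth is unknown, which limits what can be said of the low members.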

Other observations

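Coenzyme Q carries electrons from complexes I and II to complex III, and the genes for its synthesis were measured at low levels. Of 13 listed genes 12 were tested and none was called in limma. An unadjusted p under 0.05 was reached by 3 of the 12, near the 23.2% of all tested genes. Coq2, which joins the ring to its tail, had 9.22 and 8.78 FPKM with vehicle and 7.84 and 7.29 with galectin-1 (log2 difference -0.22, limma adjusted p = 0.136). Coq3, a methyltransferase of the pathway, had 3.14 and 3.05 FPKM with vehicle and 2.53 and 2.23 with galectin-1 (-0.28, limma adjusted p = 0.151). The median of the list was -0.10 and 4 of 12 differences were positive.

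Other dehydrogenases also feed coenzyme Q. Of 8 listed, 5 were tested and none was called in limma. An unadjusted p under 0.05 was reached by 2, or 40.0%, against 23.2% of all tested genes. Etfb, a subunit of the electron carrier of fatty acid oxidation, had 44.5 and 41.2 FPKM with vehicle and 38.2 and 37.2 with galectin-1 (-0.18, limma adjusted p = 0.122). Gpd2, the mitochondrial glycerol 3-phosphate dehydrogenase, had 39.0 and 38.9 FPKM with vehicle and 35.9 and 33.7 with galectin-1 (-0.16, limma adjusted p = 0.127).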
